A study of Homo sapiens with 8 samples.

Results

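The genes of the mRNA decay machinery were measured in 4 FT293 cell lines. They were the genes whose array name is that of a CNOT, EXOSC, DCP, EDC, LSM, UPF or SMG protein, or of PAN2, PAN3, XRN1, XRN2, PARN, PATL1 or DDX6. This rule took 88 of 50599 probes and 54 of 36337 gene names, and it used no measured value. FT293 cells are HEK293 cells, a human embryonic kidney line, that carry a single recombination site for a transgene under tetracycline control. One line expressed GFP alone, and the other lines expressed GFP-HuR, GFP-TIA1 or GFP-TIAR. RNA was taken 3 days after tetracycline was added, and 2 independent replicates of each line were hybridised on 1-colour Agilent arrays, 8 arrays in all on a single slide. Each protein was expressed in 1 line, so the effect of the protein and any other property of that line cannot be told apart. HuR stabilises many mRNAs with AU-rich elements, TIA1 and TIAR repress the translation of many of the same kind, and the comparisons ask how the genes that degrade mRNA differed between these lines.

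Decay of a typical mRNA begins with removal of its poly(A) tail, by PAN2-PAN3 and then by CCR4-NOT. The shortened mRNA is then bound at its 3' end by the LSM1-7 ring and PATL1, decapped by DCP2 with its activators, and degraded from the 5' end by XRN1. The exosome degrades RNA from the 3' end, and the UPF and SMG proteins direct mRNAs with premature stop codons into decay. Several members also work elsewhere: LSM2 to LSM8 form a second ring in the spliceosome, LSM10 and LSM11 belong to the U7 snRNP that processes histone mRNAs, and SMG6 and SMG1 have roles outside nonsense-mediated decay.

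Values are log2 signals minus the 75th percentile of the array, so a value of 0 is a spot as bright as that percentile. A gene with several probes was counted by the probe of highest mean signal. The probes of all 54 genes counted in this way were well above the local background on all 8 arrays, as were 86 of the 88 probes. A difference was called when it was at least 2-fold with an adjusted p under 0.05 in limma, adjusted by the Benjamini-Hochberg method over all probes tested. Folds compare the same probe between lines, and one probe's signal was not set against another's.

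The arrays were of even quality except GFP replicate 1. It had 43524 probes well above background, against 26928 to 29599 on the other 7 arrays, and a mean local background of 90.0 units against 37.4 to 43.5. Replicates correlated at 0.993 to 0.997 in the HuR, TIA1 and TIAR lines and at 0.947 in the GFP line. There 48 of the 54 decay genes were higher on replicate 2, against 57.3% of all genes tested, so the 2 GFP arrays differed more in one direction for the decay genes. By their probes of highest signal, the HEK293 markers VIM, KRT8, KRT18, LIN28B, NEFL and PAX2 were well above background on all arrays, and NEFM on 7. A second PAX2 probe was so on 2. NEFL was called lower in TIA1 and TIAR versus HuR (-1.39 ± 0.09 and -1.68 ± 0.11, limma adjusted p = 0.0028 and 0.0050). NEFM was called lower in TIAR versus HuR (-1.05 ± 0.11, limma adjusted p = 0.0090). Of the markers that these cells should lack, CD3E and PECAM1 were well above background on 2 and 1 arrays. ALB was so on 6 arrays, and was called higher in TIA1 and TIAR versus HuR (2.82 ± 0.21 and 2.62 ± 0.20, limma adjusted p = 0.0031 and 0.0055). The PTPRC probe of highest signal was so on 8 arrays, and the other PTPRC probes on 3, 1, 1 and 0. That first PTPRC probe stood at 1.13 on GFP replicate 1 and between -4.65 and -3.92 elsewhere. The TIAL1 probe of highest signal, for the gene of TIAR, read 4.89 and 5.01 in the TIAR line and 1.65 to 2.53 elsewhere. Another TIAL1 probe did not rise, at -4.10 and -3.83 in the TIAR line and -4.34 to -3.44 elsewhere. In TIA1 versus HuR the 2 TIAL1 probes differed by -0.80 ± 0.10 and -0.57 ± 0.16 SE (log2, limma adjusted p = 0.0073 and 0.049). The TIA1 probe of highest signal was lower than in the HuR line in the TIA1 line (log2 fold change -0.97 ± 0.10 SE, limma adjusted p = 0.0047) and in the TIAR line (-1.57 ± 0.17, limma adjusted p = 0.0089). A second TIA1 probe gave -0.51 ± 0.14 and -0.54 ± 0.13 (limma adjusted p = 0.049 and 0.041). The probe for ELAVL1, the gene of HuR, read 0.35 and 0.43 in the HuR line and 1.09 and 0.94 in the GFP line. Whether the TIA1 and ELAVL1 probes lie inside the transgenes was not tested.

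Few decay genes differed at least 2-fold between the HuR, TIA1 and TIAR lines. In TIA1- versus HuR-expressing cells, 0 of the 54 genes were called higher and 0 lower, where 8.54% and 4.67% of the 21219 genes tested were called. At an unadjusted p under 0.05 there were 22, 40.7%, against 52.4% of all genes. In TIAR- versus HuR-expressing cells, PATL1 was called higher, 1 gene against a background of 7.47%, and 0 were called lower against 2.75%. At an unadjusted p under 0.05 there were again 22, against 45.5% of all genes. In TIAR- versus TIA1-expressing cells 0 were called in either direction, against 2.35%, with 3, or 5.56%, at an unadjusted p under 0.05 against 23.3% of all genes. The methods' paired t-test at an unadjusted p, with the same 2-fold minimum, counted 0 genes in the first comparison, 1 in the second and 0 in the third, where 6.97%, 4.73% and 1.53% of all genes were counted. The shares of all genes called moved with the processing. With the authors' processed values they were 3.58% higher and 2.54% lower in TIA1 versus HuR and 2.89% and 1.63% in TIAR versus HuR, and with normexp background correction 5.52% and 2.40%, and 4.40% and 1.53%. Against those shares, 0 of the 54 decay genes were called under either setting. The TIA1 and TIAR comparisons with HuR share the HuR arrays.

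The intervals of most decay genes lay within 2-fold, which depends on the size of the difference as well as on its precision. The median SE was 0.10 for the decay genes and 0.12 for all genes in TIA1 versus HuR, and 0.11 and 0.12 in TIAR versus HuR. The 95% confidence interval of the log2 fold change lay wholly within 2-fold either way for 46 of the 54 genes in TIA1 versus HuR and for 47 in TIAR versus HuR, shares of 85.2% and 87.0%, where 67.5% and 69.6% of all genes tested did so. In TIAR versus TIA1 it did for 50, against 80.4% of all genes. The median absolute log2 fold change of the decay genes was 0.23 in TIA1 versus HuR against 0.39 for all genes, and 0.28 against 0.34 in TIAR versus HuR. The background included many dimmer probes. The decay genes had a median signal of 1.73, against -0.81 for all genes tested. Among the 12833 genes no dimmer than the dimmest decay gene, 8.44% were called in TIA1 versus HuR and 5.94% in TIAR versus HuR, and the median absolute log2 fold changes were 0.35 and 0.30. Among the 4830 genes at or above the median signal of the decay genes, 4.31% and 3.0% were called and the median absolute log2 fold changes were 0.31 and 0.26, where the 27 decay genes among them had 0.20 and 0.27. In TIAR versus HuR the sizes of the decay genes were thus close to those of genes of like signal, and the 1 gene called was 1.85% of the 54.

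**Figure D1:**
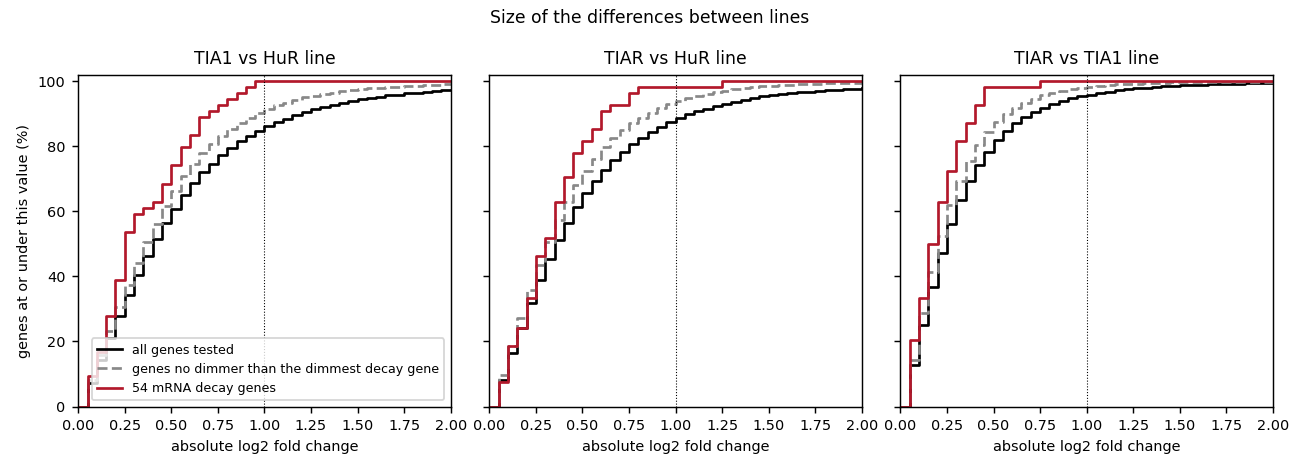
Share of genes (y axis, percent) at or under each absolute log2 fold change (x axis) in 3 comparisons of lines, for all genes tested (black), for genes no dimmer than the dimmest decay gene (grey, dashed) and for the 54 decay genes (red); the dotted line marks 2-fold. In TIA1 versus HuR the decay genes end before the dotted line, and 40 of the 54 lie at or under 0.50, or 74.1% against 60.8% of all genes.

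With no minimum fold, 17 decay genes passed an adjusted p under 0.05 in TIA1 versus HuR, 7 higher and 10 lower, where 24.5% and 17.0% of all genes passed. In TIAR versus HuR 11 passed, 5 higher and 6 lower, where 18.9% and 11.9% of all genes did. The decay genes that passed no longer did so without HuR replicate 1 or HuR replicate 2, fits in which only the other line gave the spread. The share of all genes that passed in those fits is not given, so the loss cannot be read as particular to the decay genes. In TIAR versus TIA1 0 passed, against 3.40% of all genes. The shares of decay genes lay under the background except that of genes lower in TIA1 versus HuR, 18.5%, which was close to it. EDC4, LSM14B, UPF2 and UPF3A were higher than in the HuR line in both comparisons, and DCPS, EXOSC3, LSM10, LSM5, PAN2 and PARN were lower in both. EXOSC1, SMG8 and XRN2 passed as higher and DCP1B, EXOSC4, EXOSC7 and SMG6 as lower in TIA1 versus HuR alone, and PATL1 as higher in TIAR versus HuR alone, where the difference between the comparisons is that of TIAR versus TIA1, in which none passed. LSM14B, DCPS, EXOSC3, LSM10 and LSM5, like EXOSC1, EXOSC4, EXOSC7, DCP1B, SMG8, LSM3, LSM4 and LSM11 elsewhere in the text, were named after their values were seen.

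**Figure D2:**
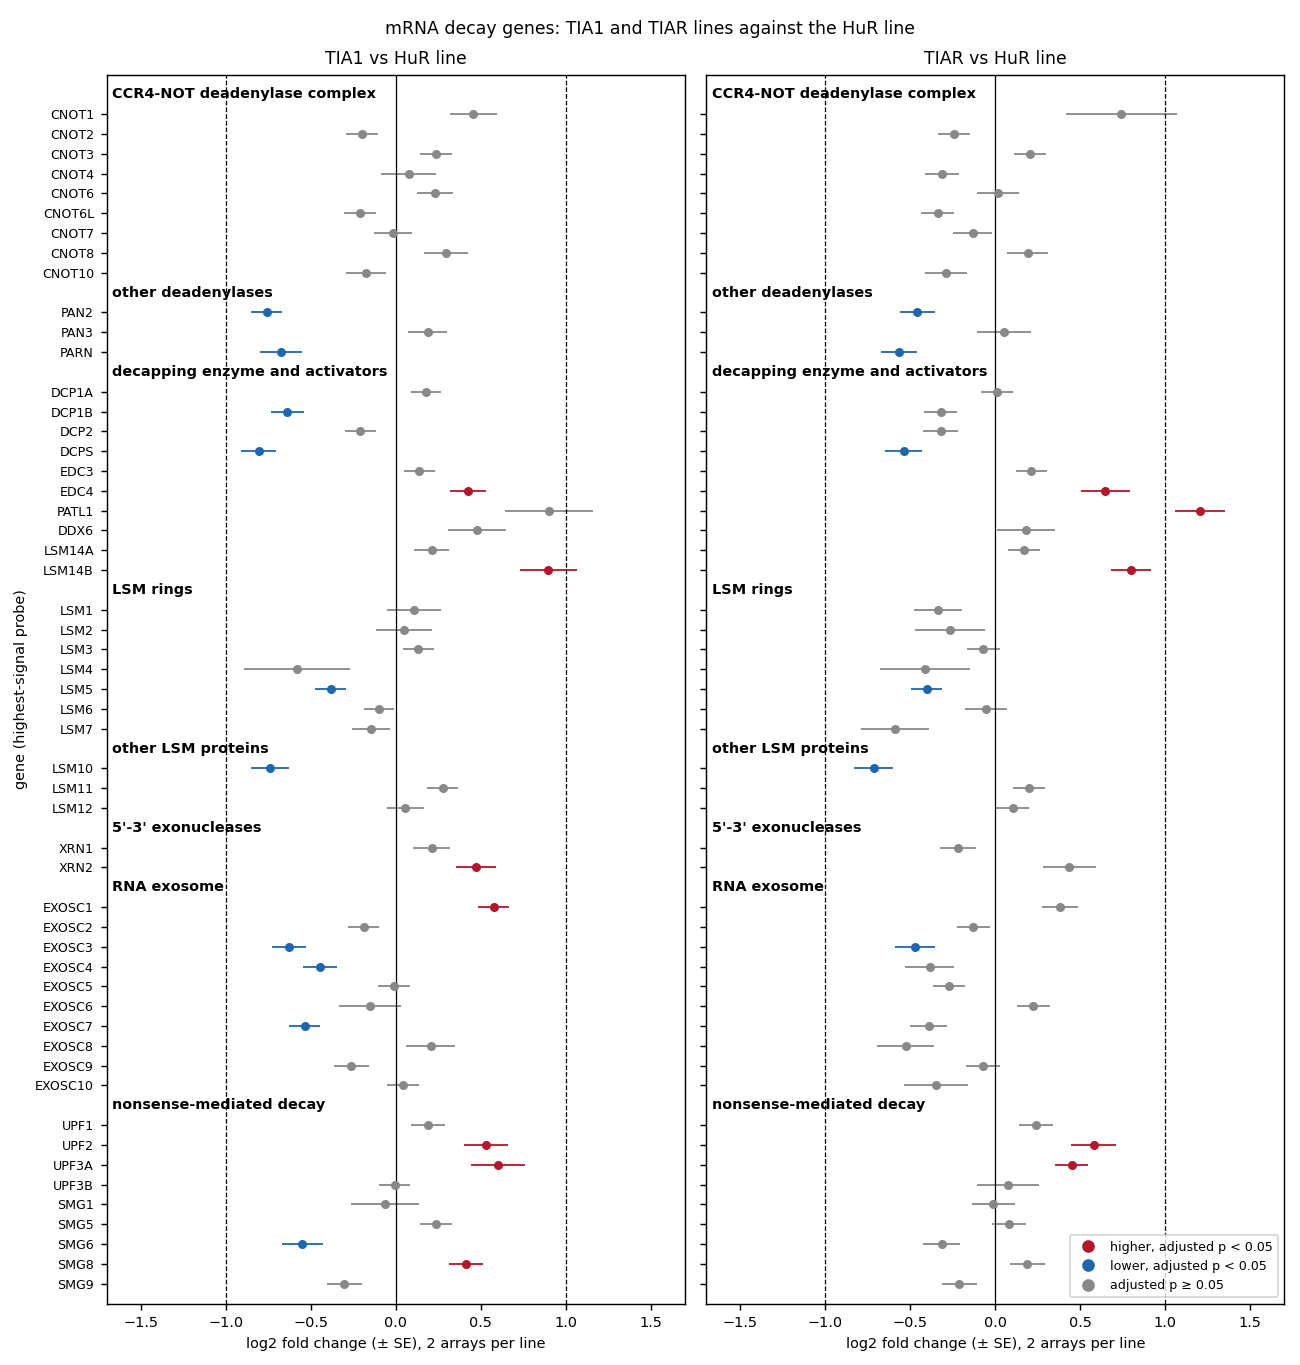
Log2 fold change (x axis; points, with bars of 1 SE; 2 arrays per line) of 53 decay genes in the TIA1 line (left) and the TIAR line (right) against the HuR line, by complex; red and blue mark genes higher or lower at an adjusted p under 0.05, grey the others, and dashed lines mark 2-fold. PATL1 in the TIAR line, at 1.20, is the only coloured point outside the dashed lines.

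Among the deadenylases, the catalytic subunits outside CCR4-NOT were lower in both TIA lines than in the HuR line. PAN2, the nuclease of the PAN2-PAN3 complex that makes the first cut of the tail, read 0.35 and 0.43 in the HuR line, -0.38 and -0.36 in the TIA1 line, -0.13 and -0.01 in the TIAR line, and -0.62 and -0.14 in the GFP line. The HuR arrays were above all the others, and the arrays of the TIA1 and TIAR lines fell within or just above the range of the GFP arrays. Its log2 fold change was -0.76 ± 0.09 (SE, n = 2 per line, limma adjusted p = 0.0073) in TIA1 versus HuR and -0.46 ± 0.10 (limma adjusted p = 0.038) in TIAR versus HuR. PARN, a poly(A)-specific ribonuclease that also matures small noncoding RNAs, read 1.77 and 1.79 in the HuR line, 1.42 and 1.71 in the GFP line, 1.23 and 0.98 in the TIA1 line and 1.29 and 1.13 in the TIAR line. All arrays of the TIA lines were thus below all GFP and HuR arrays. Its log2 fold changes were -0.67 ± 0.12 (limma adjusted p = 0.018) and -0.57 ± 0.11 (limma adjusted p = 0.026). PAN3, the RNA-binding partner of PAN2, had log2 fold changes of 0.19 ± 0.12 and 0.05 ± 0.16, neither past the test.

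No gene of CCR4-NOT passed an adjusted p under 0.05 by its highest-signal probe. In TIA1 versus HuR 0 of 9 did so, against 41.5% of all genes, and their log2 fold changes ran from -0.21 to 0.46. In TIAR versus HuR 0 of 9 did so, against 30.8% of all genes, and the log2 fold changes ran from -0.34 to 0.74. This complex is the main cytoplasmic deadenylase. Of its nucleases, CNOT6 had log2 fold changes of 0.23 and 0.01 in TIA1 and TIAR versus HuR, CNOT6L of -0.21 and -0.34, CNOT7 of -0.02 and -0.13, and CNOT8 of 0.30 and 0.19. All arrays of the TIA lines were above all GFP and HuR arrays for CNOT8. CNOT1, the scaffold on which the complex assembles, was read lowest in the HuR line, at -1.26 and -1.29. It stood at -0.97 and -0.66 in the TIA1 line, at -0.97 and -0.77 in the GFP line, and at -0.99 and -0.08 in the TIAR line, whose replicates lay 0.91 apart. Its log2 fold change against HuR was 0.46 ± 0.14 (limma adjusted p = 0.059) for TIA1 and 0.74 ± 0.33 (limma adjusted p = 0.16) for TIAR. Without TIAR replicate 1 it was called higher in that line, but then 1 array stood for the line and only HuR gave the spread.

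CNOT4, an E3 ubiquitin ligase that associates with the complex, had 5 probes that did not move together. Its probe of highest signal differed by 0.08 ± 0.16 (log2, TIA1 versus HuR) and the probe 1216 bases from it by -0.09 ± 0.28. The other 3 probes were each called higher in the TIA1 line, at 1.34 ± 0.16, 1.18 ± 0.10 and 1.09 ± 0.10 (limma adjusted p = 0.0071, 0.0040 and 0.0040). On the first of these the arrays read -1.57 and -1.69 in the HuR line, -0.11 and -0.48 in the TIA1 line, -0.81 and -1.18 in the TIAR line, and -1.63 and -1.40 in the GFP line. The TIA1 arrays were the highest, the TIAR arrays came next, and neither overlapped the controls. In TIAR versus HuR the same 3 probes differed by 0.63 ± 0.16, 0.81 ± 0.11 and 0.41 ± 0.10, of which the last 2 passed an adjusted p under 0.05 (limma adjusted p = 0.051, 0.013 and 0.044). The first probe stayed at least 2-fold higher in TIA1 versus HuR with other scalings, at 1.24 with normexp, 1.20 with quantile normalization and 1.09 with the authors' processed values. The other 2 fell under 2-fold in all 3, at 0.89, 0.90 and 0.54 for the second and 0.99, 0.87 and 0.70 for the third, with an adjusted p still under 0.05. The gene runs on the minus strand of chromosome 7. The 2 probes without a difference lie at its downstream end, at chr7:135046647-135046706 and chr7:135047863-135047922 (hg19), and the 3 called probes lie between 135071386 and 135072846, with starts 23523 to 26140 bases upstream. Their sequences are shown because the 2 groups of probes read different parts of the transcripts. The first is given whole and the second by its first 30 bases, with no base marked.
CNOT4 probe at chr7:135047863-135047922 (hg19, minus strand): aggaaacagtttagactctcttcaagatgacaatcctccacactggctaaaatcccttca
CNOT4 probe at chr7:135071386-135071445 (hg19, minus strand), first 30 bases: atttttgcatagaatggctaaacatgatct

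Among the decapping factors counted by their probes of highest signal, PATL1 had the largest difference in TIAR versus HuR. PATL1 links the LSM1-7 ring to the decapping enzyme. It read -0.73 and -1.04 in the HuR line, 0.39 and 0.26 in the TIAR line, -0.30 and 0.34 in the TIA1 line, and 0.59 and -0.06 in the GFP line. Both HuR arrays were below the other 6. It was called higher in TIAR versus HuR, 2.30-fold (log2 fold change 1.20 ± 0.15, n = 2 per line, limma adjusted p = 0.011), and differed by 0.90 ± 0.26 (limma adjusted p = 0.053) in TIA1 versus HuR. The TIAR and TIA1 lines differed by 0.30 ± 0.24, with a 95% interval of -0.35 to 0.95. The adjusted p in TIAR versus HuR ranged from 0.0065 to 0.29 over the alternatives and was 0.056 and 0.075 without HuR replicate 1 or 2. The probe lies on the minus strand at chr11:59404646-59404705 (hg19), and its first 30 bases, shown because it is the probe of the only decay gene called by its probe of highest signal, are in lower case with no base marked.
PATL1 probe, first 30 bases: tctcccattcagcaatcaaccagactaagg

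LSM14B, an RNA-binding protein of P-bodies and the paralog of LSM14A, had the widest spread of line means, 1.54. It read -2.47 and -2.53 in the HuR line, -1.81 and -1.39 in the TIA1 line, -1.81 and -1.60 in the TIAR line, and -0.68 and -1.25 in the GFP line. The HuR arrays were again the lowest and the GFP arrays the highest, with no overlap between GFP, the TIA lines and HuR. Its log2 fold changes against HuR were 0.90 ± 0.17 (limma adjusted p = 0.019) for TIA1 and 0.80 ± 0.12 (limma adjusted p = 0.016) for TIAR. A second probe, 5858 bases away on the same strand, gave 1.12 ± 0.14 and 0.75 ± 0.12 (limma adjusted p = 0.0079 and 0.018), and was thus called in the TIA1 line. With normexp, quantile normalization and the authors' processed values that TIA1 difference was 0.78, 0.80 and 0.45, under 2-fold each time. The remaining probe gave 0.42 ± 0.16 and 0.62 ± 0.12, past an adjusted p under 0.05 only for TIAR (limma adjusted p = 0.11 and 0.027). The first pair is shown because it places the difference at separate points of the transcript, and no base is marked.
LSM14B probe at chr20:60705602-60705661 (hg19, plus strand): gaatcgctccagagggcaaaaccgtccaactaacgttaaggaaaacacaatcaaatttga
LSM14B probe at chr20:60699744-60699803 (hg19, plus strand): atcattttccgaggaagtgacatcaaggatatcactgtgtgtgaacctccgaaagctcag

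PATL1 and LSM14B were both lower on the HuR arrays than on the other 6, as were CNOT1 and UPF3A, whose promoters are not shown. That pattern held for 7.41% of the decay genes and 15.6% of all genes, and a link between it and the promoters was not tested. The promoters of PATL1 and LSM14B are given from RefSeq (GRCh38.p14) as the 250 bases before the start site, with capitals for GGGCGG (GC box), CCAAT and TGACG on either strand.
PATL1, chr11:59669038-59669287, minus strand: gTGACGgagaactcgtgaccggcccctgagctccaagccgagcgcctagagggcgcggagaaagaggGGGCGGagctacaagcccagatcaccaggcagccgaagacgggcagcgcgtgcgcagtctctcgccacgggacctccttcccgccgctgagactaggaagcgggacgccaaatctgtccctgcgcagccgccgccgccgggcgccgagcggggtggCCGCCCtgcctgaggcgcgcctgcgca
LSM14B, chr20:62122225-62122474, plus strand: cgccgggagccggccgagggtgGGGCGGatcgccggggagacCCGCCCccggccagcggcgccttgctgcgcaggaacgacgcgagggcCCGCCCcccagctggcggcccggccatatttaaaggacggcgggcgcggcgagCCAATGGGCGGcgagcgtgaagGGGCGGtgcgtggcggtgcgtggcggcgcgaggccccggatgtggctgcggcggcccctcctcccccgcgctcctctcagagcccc
The PATL1 stretch held 2 GC boxes and 1 TGACG, and the LSM14B stretch held 5 GC boxes and 1 CCAAT box, which adjoins one of them. A GC box stood in the same window of 34 of the 45 decay genes with a promoter in the table, 75.6%, and in 42.3% of all 27305 promoters. The 27305 promoters were not limited to genes on the array or to genes of like signal. Whether any share is particular to the decay genes was thus not tested. The shares of decay genes and of all promoters were 40% and 33.0% for the CCAAT box and 35.6% and 21.7% for TGACG. The ETS motif CCGGAAG was searched too and stood in 6.67% of the decay genes and 8.82% of all promoters. The shares for the E-box CACGTG were 8.89% and 6.49%, and neither motif was in the printed stretches.

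EDC4, the scaffold that holds the decapping enzyme and its activators together, was higher in both TIA lines. It read 3.49 and 3.39 in the HuR line, 3.81 and 3.93 in the TIA1 line, 4.24 and 3.94 in the TIAR line, and 2.88 and 3.48 in the GFP line. All arrays of the TIA lines were above all GFP and HuR arrays. The log2 fold changes against HuR were 0.43 ± 0.10 (limma adjusted p = 0.036) and 0.65 ± 0.14 (limma adjusted p = 0.037). DCPS, the scavenger enzyme that breaks down the cap left by decay from the 3' end, went the other way: 1.65 and 1.50 in the HuR line and 1.22 and 1.40 in the GFP line against 0.79 and 0.75 in the TIA1 line and 1.00 and 1.08 in the TIAR line. Again the TIA lines did not overlap the controls. Its log2 fold changes were -0.80 ± 0.10 (limma adjusted p = 0.0080) and -0.54 ± 0.11 (limma adjusted p = 0.029). DCP1B, a cofactor of DCP2, was lower in TIA1 versus HuR alone, by -0.64 ± 0.10 (limma adjusted p = 0.011), and differed by -0.32 ± 0.10 in TIAR versus HuR (limma adjusted p = 0.075). The decapping enzyme DCP2 itself differed by -0.21 ± 0.09 and -0.32 ± 0.10, its cofactor DCP1A by 0.18 ± 0.09 and 0.01 ± 0.09, and the helicase DDX6, which represses translation of deadenylated mRNAs, by 0.48 ± 0.17 and 0.18 ± 0.17, none past the test. Of the 10 decapping factors, 2 were higher and 2 lower in TIA1 versus HuR at an adjusted p under 0.05, and 3 and 1 in TIAR versus HuR. Of all genes, 24.5% were higher and 17.0% lower in the first comparison, and 18.9% and 11.9% in the second.

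**Figure D3:**
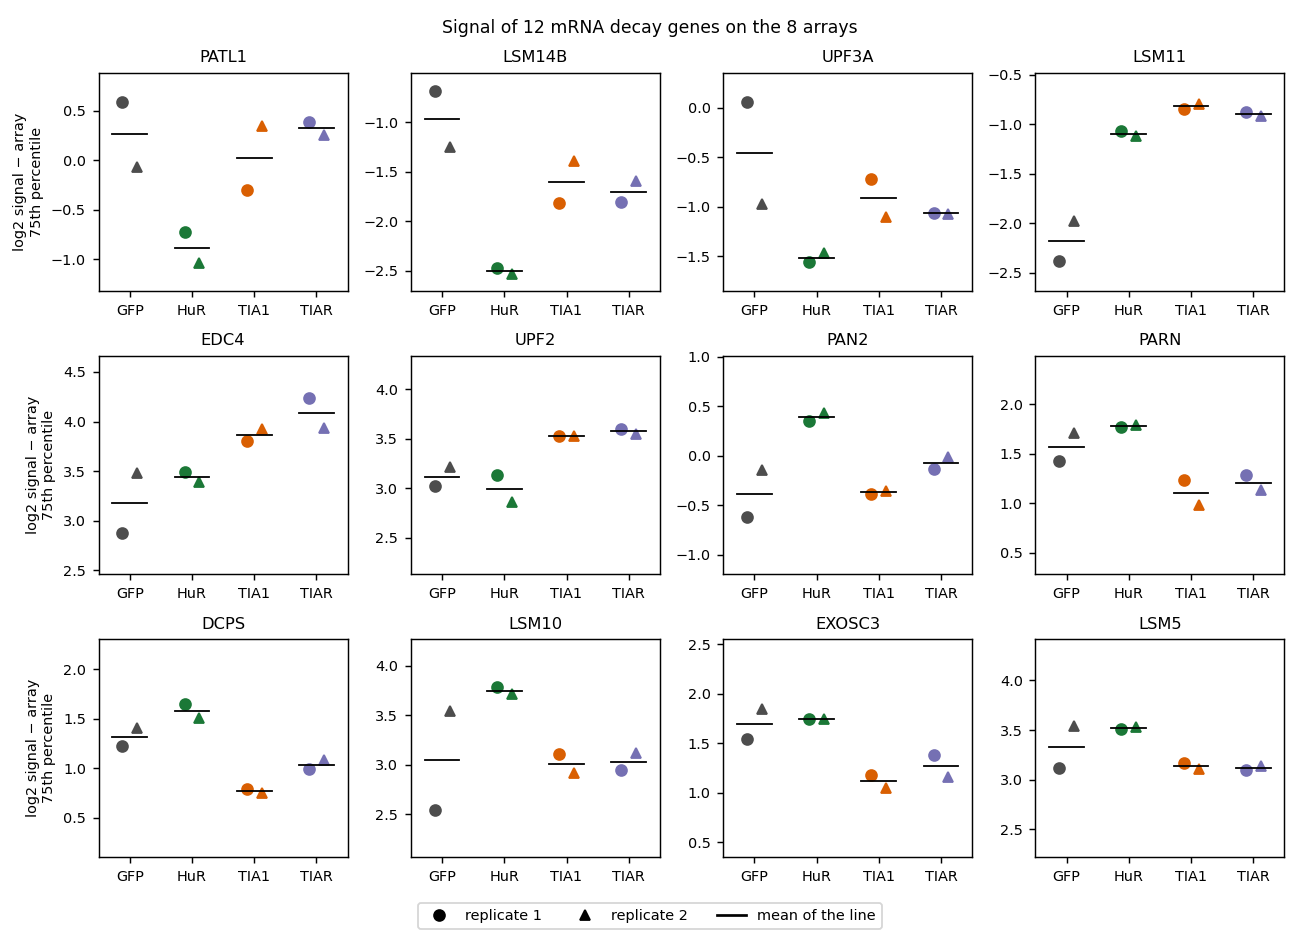
Log2 signal minus the array's 75th percentile (y axis) of 12 decay genes on the 8 arrays, by line (x axis); circles and triangles are replicates 1 and 2, bars are the mean of the line, and each panel has its own range. Both HuR arrays are lowest for PATL1, LSM14B and UPF3A, and the 4 arrays of the TIA lines are lowest for PARN, DCPS and EXOSC3.

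The LSM1-7 ring binds the 3' end of deadenylated mRNAs. In TIAR versus HuR the log2 fold changes of all 7 were below 0, with a median of -0.34 and a range of -0.59 to -0.06, where 43.9% of all genes were below 0. Under quantile normalization 5 of the 7 were below 0, and with the authors' processed values 6. In TIA1 versus HuR 3 were above 0 and 4 below, and in TIAR versus GFP also 3 and 4. In TIA1 versus GFP 6 were above 0 and 1 below. In HuR versus GFP all 7 were above 0, as were 43 of the 54 decay genes, where 52.1% of all genes were below 0. That contrast with all genes depended on the scaling. The median log2 fold changes in HuR versus GFP were 0.16 for the decay genes and -0.03 for all genes, and 0.15 and -0.11 with normexp. Under quantile normalization they were 0.02 and 0.17, and with the authors' processed values 0.02 and 0.125. GFP replicate 1, the array of uneven quality, entered the GFP mean. Only LSM5 passed the test in TIAR versus HuR, at -0.40 ± 0.09 (limma adjusted p = 0.039), and it did so in TIA1 versus HuR too, at -0.38 ± 0.09 (limma adjusted p = 0.034). It lost an adjusted p under 0.05 in 10 of 12 alternatives in TIAR versus HuR, where the authors' processed values gave -0.13, and in 9 of 12 in TIA1 versus HuR. LSM1, the subunit that distinguishes the cytoplasmic ring, differed by 0.11 ± 0.16 and -0.34 ± 0.14. LSM8, which takes the place of LSM1 in the nuclear ring, is on the array under the name NAA38, matched by its RefSeq accession, and differed by 0.04 and -0.11 (limma adjusted p = 0.91 and 0.77). LSM4 was the least even between replicates, with 2.47 and 3.35 in the TIA1 line and 3.43 and 2.72 in the TIAR line against 3.56 and 3.42 in the HuR line. Without TIA1 replicate 2 it was called lower in TIA1 versus HuR, a fit in which only the HuR line gave the spread. LSM3 had a second probe, 2966 bases downstream of the first, that was called higher in TIA1 versus HuR (1.19 ± 0.15, limma adjusted p = 0.0080), where the first probe differed by 0.13 ± 0.09. With normexp, quantile normalization and the authors' processed values the second probe's difference was 0.91, 0.96 and 0.64, under 2-fold.

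The U7 snRNP proteins differed from each other. LSM10 read 3.79 and 3.71 in the HuR line, above the other 6 arrays, 3.1 and 2.91 in the TIA1 line, 2.94 and 3.12 in the TIAR line, and 2.54 and 3.54 in the GFP line. Its log2 fold changes against HuR were -0.74 ± 0.11 (limma adjusted p = 0.012) and -0.72 ± 0.11 (limma adjusted p = 0.018). LSM11 read -2.38 and -1.97 in the GFP line and between -1.12 and -0.79 in the other lines, with the TIA lines above HuR by 0.28 ± 0.09 and 0.20 ± 0.09, neither past the test. Against GFP the TIA1 and TIAR lines differed by 1.36 and 1.28, the largest differences of any decay gene in those comparisons, and the range of its line means was 1.16 with GFP replicate 2 alone.

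Of the 5'-3' exonucleases, 1 of 2 passed an adjusted p under 0.05 in TIA1 versus HuR and 0 in TIAR versus HuR. Of all genes, 41.5% and 30.8% did so. XRN1, which degrades decapped mRNA in the cytoplasm, differed from the HuR line by 0.21 ± 0.11 in the TIA1 line and by -0.22 ± 0.10 in the TIAR line, neither past the test. XRN2, its nuclear counterpart, was higher in TIA1 versus HuR (0.47 ± 0.12, limma adjusted p = 0.038) and differed by 0.43 ± 0.16 in TIAR versus HuR (limma adjusted p = 0.11).

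The log2 fold changes of 7 of the 10 exosome genes were below 0 in TIA1 versus HuR and of 8 in TIAR versus HuR, with medians of -0.17 and -0.31, where 43.5% and 43.9% of all genes were below 0. With other scalings the counts were 6 to 8 and 7 to 8. Against GFP, 5 of the 10 were below 0 in the TIA1 line and 6 in the TIAR line. In HuR versus GFP 1 was below 0 and 9 above, where 52.1% of all genes were below 0. The contrast of the decay genes as a whole with all genes in HuR versus GFP depended on the scaling, as given above. At an adjusted p under 0.05, EXOSC3, EXOSC4 and EXOSC7 were lower and EXOSC1 higher in TIA1 versus HuR, and EXOSC3 was lower in TIAR versus HuR. EXOSC3, a cap subunit that binds RNA, read 1.74 and 1.74 in the HuR line and 1.54 and 1.84 in the GFP line against 1.18 and 1.05 in the TIA1 line and 1.38 and 1.16 in the TIAR line, with no overlap. Its log2 fold changes were -0.63 ± 0.10 (limma adjusted p = 0.013) and -0.47 ± 0.12 (limma adjusted p = 0.048). EXOSC1, another cap subunit, had 0.58 ± 0.09 (limma adjusted p = 0.013) and 0.38 ± 0.11 (limma adjusted p = 0.063). EXOSC10, the nuclear 3'-5' exonuclease, had 0.04 ± 0.10 and -0.35 ± 0.19.

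In nonsense-mediated decay, UPF2 and UPF3A were higher in both TIA lines than in the HuR line by their probes of highest signal. The second UPF3A probe was called lower in TIAR versus HuR, as given below. UPF2, which bridges UPF1 and UPF3, read 3.13 and 2.86 in the HuR line and 3.02 and 3.21 in the GFP line against 3.53 and 3.53 in the TIA1 line and 3.60 and 3.55 in the TIAR line. The TIA lines did not overlap the controls. The log2 fold changes were 0.53 ± 0.13 (limma adjusted p = 0.035) and 0.58 ± 0.13 (limma adjusted p = 0.039), and of its other 4 probes 3 were above 0 in TIA1 versus HuR and 4 in TIAR versus HuR. The helicase UPF1, the core factor of the pathway, stood above the controls on all arrays of the TIA lines but by only 0.19 ± 0.10 and 0.24 ± 0.10, neither past the test. UPF3B differed by -0.01 ± 0.09 and 0.07 ± 0.18. The endonuclease SMG6 was lower in TIA1 versus HuR (-0.55 ± 0.12, limma adjusted p = 0.028) and differed by -0.32 ± 0.11 in TIAR versus HuR (limma adjusted p = 0.098). Its arrays in the TIA lines, -0.65 and -0.42 for TIA1 and -0.22 and -0.38 for TIAR, were below those of GFP and HuR, -0.03 to 0.14. The adaptor SMG5 differed by 0.24 ± 0.10 in TIA1 versus HuR and by 0.08 ± 0.10 in TIAR versus HuR, neither past the test. SMG8, a regulator of the kinase SMG1, was higher in TIA1 versus HuR (0.42 ± 0.10, limma adjusted p = 0.034).

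SMG1, the kinase that phosphorylates UPF1, had 9 probes, and its highest differed by -0.06 ± 0.20 and -0.01 ± 0.13. One other probe passed the test, at -0.88 ± 0.09 (limma adjusted p = 0.0051) in TIA1 versus HuR and -0.56 ± 0.10 (limma adjusted p = 0.025) in TIAR versus HuR. The RefSeq table lists 7 SMG1 pseudogenes, so which transcripts these probes read is uncertain.

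UPF3A, the paralog of UPF3B, had 2 probes that differed in direction. The probe of higher signal read -1.56 and -1.47 in the HuR line, below the other 6 arrays, -0.72 and -1.10 in the TIA1 line, -1.06 and -1.07 in the TIAR line, and 0.05 and -0.97 in the GFP line. It was higher than HuR by 0.60 ± 0.16 in TIA1 (limma adjusted p = 0.044) and by 0.45 ± 0.10 in TIAR (limma adjusted p = 0.034). The second probe read -2.65 and -3.20 in the TIAR line and between -1.62 and -1.21 on the other 6 arrays. It was called lower in TIAR versus HuR (-1.40 ± 0.22, limma adjusted p = 0.018), while in TIA1 versus HuR it differed by 0.11 ± 0.16. The difference between the TIAR and TIA1 lines on this probe was -1.51 ± 0.24 (limma adjusted p = 0.053). It lies 3276 bases upstream of the first. Both sequences are shown because the probes read different places of the gene and gave different values. The second probe is given whole and the other by its first 30 bases, with no base marked.
UPF3A second probe, chr13:115067241-115067300 (hg19, plus strand): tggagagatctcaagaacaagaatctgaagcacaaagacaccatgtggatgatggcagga
UPF3A probe of higher signal, chr13:115070517-115070576 (hg19, plus strand), first 30 bases: gggtgacatagaaacacgcagaaaccattc

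**Figure D4:**
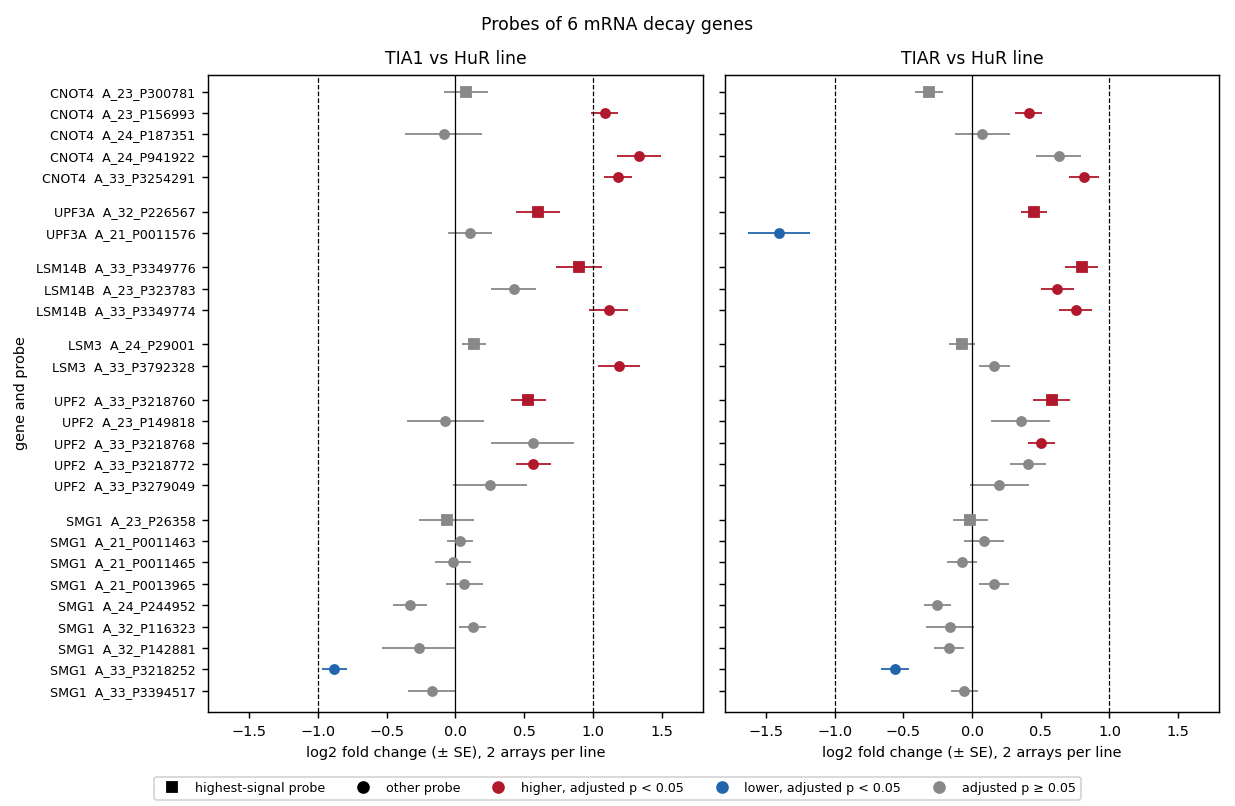
Log2 fold change (x axis; bars of 1 SE; 2 arrays per line) of each probe of 6 decay genes (y axis) in the TIA1 line (left) and the TIAR line (right) against the HuR line; squares are the probes of highest signal, circles the others, red and blue mark an adjusted p under 0.05 and dashed lines 2-fold. The 3 CNOT4 probes, 1 LSM14B probe and 1 LSM3 probe called higher lie beyond 2-fold in the TIA1 line, and 1 UPF3A probe lies at -1.40 in the TIAR line.

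Against the GFP line, limma called 0 decay genes in any of the 3 comparisons, and 0% of all genes. At an unadjusted p under 0.05 there were 5 decay genes in TIA1 versus GFP, 3 in TIAR versus GFP and 8 in HuR versus GFP, or 9.26%, 5.56% and 14.8%, where 21.0%, 15.7% and 16.5% of all genes were. The same fit recovered no changed probe against GFP in simulated data, so a count of 0 in these comparisons says nothing about stability. The median SE of the decay genes was 0.23, 0.24 and 0.20 here, against 0.10 and 0.11 in TIA1 and TIAR versus HuR. In HuR versus GFP, 1 decay gene was at least 2-fold higher, LSM11 at 1.08 ± 0.22, and 3 were at least 2-fold lower, LSM14B at -1.54 ± 0.26, PATL1 at -1.15 ± 0.31 and UPF3A at -1.06 ± 0.41; of all genes, 2.65% and 12.3% were. Among the 12833 genes no dimmer than the dimmest decay gene these shares were 2.00% and 2.07%, against 1.85% and 5.56% of the decay genes. LSM11 was the only decay gene at least 2-fold from GFP in the TIA1 and TIAR lines, where 6.27% and 5.32% of all genes, and 4.89% and 3.78% of those no dimmer than the dimmest decay gene, were at least 2-fold higher. Without GFP replicate 1, LSM14B was called lower in HuR versus GFP and LSM11 higher in TIA1 versus GFP. In those fits 1 array stood for the GFP line and only the other line gave the spread. More decay genes, and more of all genes, were called without GFP replicate 2, with the same limit.

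Over the 4 lines, the range of the line means had a median of 0.48 for the decay genes and 0.73 for all genes tested, and was at least 1 for 4 decay genes (LSM14B, LSM11, PATL1 and UPF3A), 7.41%, against 32.9% of all genes. The arrays of both TIA lines were above all 4 GFP and HuR arrays for 9 decay genes and below them for 4, where 13.5% and 9.21% of all genes did so. The HuR arrays were above the other 6 for 8 decay genes and below them for 4 (CNOT1, LSM14B, PATL1 and UPF3A), where 11.5% and 15.6% of all genes did so. The share of decay genes in each of these patterns lay between 7.41% and 16.7%.

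Of 73 further genes of the pathway outside the rule, such as partners of CCR4-NOT, exosome cofactors, exon junction proteins and microRNA effectors, 67 were on the array under their listed names and 66 were tested. In TIA1 versus HuR 2 of the 66 were called higher and 3 lower, where 8.54% and 4.67% of all genes were. In TIAR versus HuR 2 and 1 were called, where 7.47% and 2.75% of all genes were. CASC3, a core exon junction protein that enhances nonsense-mediated decay, was called higher in both. It read 3.22 and 3.09 in the HuR line, 4.50 and 4.21 in the TIA1 line, 4.33 and 4.13 in the TIAR line, and 3.66 and 4.38 in the GFP line. Its log2 fold changes against HuR were 1.20 ± 0.14 (limma adjusted p = 0.0067) and 1.07 ± 0.12 (limma adjusted p = 0.0096). MAGOHB, another exon junction core protein, was called lower in both, at -1.14 ± 0.09 (limma adjusted p = 0.0033) and -1.13 ± 0.09 (limma adjusted p = 0.0059). It read 3.50 and 3.50 in the HuR line and 3.21 and 3.62 in the GFP line, against 2.36 and 2.37 in the TIA1 line and 2.35 and 2.40 in the TIAR line, with no overlap. The other genes called were BTG3 (higher, 1.51 ± 0.09), NCBP1 and NUDT16 (lower, -1.14 ± 0.10 and -1.19 ± 0.10) in TIA1 versus HuR and PATL2 (higher, 1.38 ± 0.12) in TIAR versus HuR, named here after their values were seen. The PATL2 difference ranged from 0.17 to 1.47 over 12 alternatives, and 5 of them lost an adjusted p under 0.05 (limma adjusted p = 0.26 with the authors' processed values).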

How the data were processed

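Total RNA was labelled with Cy3 and hybridised to Agilent SurePrint G3 human arrays. The authors deposited 8 scanner files from Feature Extraction 10.7.3.1, whose intensity values are background-subtracted signals on a linear scale, and a table of processed log2 values, deposited by the authors, that was used as an alternative and whose centring is not given in the sources used here (its column medians are 7.08 to 7.24). Coordinates are hg19, per the file headers. From these files, spots flagged as outliers were left out (278 to 413 per array), log2(gProcessedSignal) was centred on the 75th percentile of each array, and spots of a probe were averaged. Each comparison used limma 3.58.1 (lmFit and eBayes, R 4.3.3) on the 4 arrays of its 2 lines, over probes that stood well above background on each array of 1 of the lines or more, with Benjamini-Hochberg adjustment. Each value rests on 2 arrays a line, and that number limits its precision. The fit was tested on simulated data with 200 probes changed by more than 2-fold. It recovered 123 of them in TIA1 versus HuR, 128 in TIAR versus HuR and 115 in TIAR versus TIA1. In each comparison with GFP it recovered 0. Some true changes past 2-fold would thus be missed in every comparison.

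The members and gene lists were chosen with earlier results of these data known. The values of 1 member gene are counted with the rest but not reported here. Genes were named by a rule: called genes, a list of enzymes and scaffolds, genes with probes in opposite directions, pathway genes called in both comparisons with HuR, and the genes of the transgenes; others are named as chosen after their values were seen. All 54 symbols are in the RefSeq table, and 81 of 82 RefSeq accessions of their probes match it with the same symbol. Alternatives were normexp background correction (offset 50), quantile normalization, the processed values, other filters on dim probes, a fit over 8 arrays, a replicate block, the methods' paired t-test, counting any called probe, and leaving out each array. Call rules without a fold or without a test, and the patterns over lines, were added after seeing the data. Nothing in the sources used here says that a replicate number marks a shared batch.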

Additional observations from a re-analysis of the deposited data

Results flagged for a closer look

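In TIAR versus TIA1, 2 of the 66 further pathway genes were called, or 3.03%, against 2.35% of all genes, and 0 of the 54 decay genes. DIS3, the catalytic subunit of the exosome, is outside the naming rule of the decay genes and was picked out after its values were seen. It read -3.28 and -3.17 in the HuR line, -2.08 and -2.38 in the TIA1 line, -4.02 and -4.15 in the TIAR line, and -1.45 and -2.70 in the GFP line. The TIA1 line was above HuR by 0.99 ± 0.14 on the log2 scale and the TIAR line differed from HuR by -0.86 ± 0.11 (limma adjusted p = 0.0099 and 0.012), so the difference from the HuR line had opposite directions, and the direct comparison, TIAR versus TIA1, gave -1.85 ± 0.15 (limma adjusted p = 0.024). This adjusted p lay between 0.024 and 0.38 over 12 alternatives, and leaving out any of the 4 arrays took it to 0.082 or more. BTG3, an antiproliferative partner of the CCR4-NOT nucleases, read 4.29 and 4.29 in the TIA1 line against 3.13 and 2.91 in the TIAR line, 2.79 and 2.76 in the HuR line, and 2.65 and 2.98 in the GFP line. It was called higher in TIA1 versus HuR (1.51 ± 0.09, limma adjusted p = 0.0025), and TIAR versus TIA1 gave -1.27 ± 0.13 (limma adjusted p = 0.030; range over 12 alternatives 0.028 to 0.39, and 0.10 or more without any 1 array).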

How the results depend on the processing

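Over the alternatives, 44 results of single probes gave 528 values. All 44 passed an adjusted p under 0.05 in the fits reported above, and some other results that passed were not among them. None changed direction, 306 kept an adjusted p under 0.05 and 222 lost it. All values of the methods' paired t-test, which has 2 pairs, were among the latter. The alternatives reused the same arrays, so the lack of reversed directions is no independent evidence. A fold that fell under 2 was not counted as a loss. PATL1 in TIAR versus HuR had a fold under 2 with normexp and with the authors' processed values, and missed an adjusted p of 0.05 with all 8 arrays in one fit and with the paired t-test after adjustment, so the count of decay genes called higher was 0 in each. Counting a gene when at least 1 probe was called gave 3 higher and 0 lower in TIA1 versus HuR, or 5.56% and 0% of the decay genes. Of all genes with a tested probe, 10.3% and 5.72% were counted so. In TIAR versus HuR it gave 1 higher and 1 lower, each 1.85% of the decay genes, where 8.71% and 3.57% of all genes were counted so. With no fold minimum the counts were 7 higher and 10 lower in TIA1 versus HuR and 5 and 6 in TIAR versus HuR. With all 8 arrays in one fit 1, 1 and 2 decay genes were called in TIA1, TIAR and HuR versus GFP. The share of all genes called in that fit is not given here, so these counts have no background. At least 2-fold with no test there were 1, 1 and 4, where 16.4%, 14.4% and 14.9% of all genes were. Leaving out 1 array changed which decay genes were called, and the most were called against GFP without GFP replicate 2. In such a fit 1 array stood for its line and only the other line gave the spread. In the comparisons with HuR, PATL1 and LSM14B were added without TIA1 replicate 1, LSM4 without TIA1 replicate 2 and CNOT1 without TIAR replicate 1. With HuR replicate 1 or HuR replicate 2 left out, the decay genes past an adjusted p under 0.05 in the comparisons with HuR lost it. The share of all genes that lost it is not given, so the loss cannot be read as particular to the decay genes. The replicate block left 1 decay gene called, PATL1, and 0 elsewhere. Deviations of same-numbered arrays correlated at -0.09 to 0.18 over probes, so a pairing was not established. Quantile normalization moved the median of all genes by under 0.1 in the comparisons with HuR and from 0.02 to 0.21 in TIA1 versus GFP, from 0.00 to 0.19 in TIAR versus GFP and from -0.03 to 0.17 in HuR versus GFP, where the authors' values gave 0.15, 0.12 and 0.12. It took the share of higher genes among all called in TIAR versus HuR from 73.1% to 60.9%. The causes of these shifts were not tested.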
